A study of Mus musculus with 14 samples.

Results

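The 35 genes described here encode proteins of DNA repair, from break sensors to glycosylases and ligases, and they were read as messenger RNA levels in whole mouse kidneys. They were chosen by gene symbol, and all 35 were found among the 23682 genes that both deposited tables share. All 35 also passed the filter on low reads that kept 18810 genes for testing. Bulk RNA sequencing was done on 14 kidneys in 3 groups. The 5 mice of the GSK2830371 group and the 5 mice of the DMSO group were i-TERTci animals, which carry actin-rtTA+ and TetOp-TERTci+ transgenes, each heterozygous, so that doxycycline switches on TERTci, a catalytically inactive telomerase reverse transcriptase, in all tissues. The series uses them as a model of collapsing glomerulopathy, a kidney disease with heavy loss of protein into the urine. The 4 control mice were actin-rtTA+ only. All 14 mice drank doxycycline, so the drug and the rtTA protein were shared by every group. GSK2830371, an inhibitor of the phosphatase WIP1 that the gene Ppm1d encodes, or its solvent DMSO was injected daily into the peritoneum of i-TERTci mice from about day 15, when their urine protein was above 10 mg/mL. Injections are named for the i-TERTci groups alone. Kidneys were collected after 28 to 49 days of doxycycline in the GSK2830371 group, 29 to 38 days in the DMSO group and 30 days in controls. The labels give neither the age of the mice nor a separate cohort or litter, and the transgene is not restricted to the kidney.

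Cells repair DNA by several routes that use different proteins. The MRN complex and its partners find double-strand breaks and mark the surrounding chromatin, after which homologous recombination copies an intact sister strand or non-homologous end joining seals the ends directly. Base excision repair removes single damaged bases, nucleotide excision repair cuts out bulky lesions, mismatch repair corrects copying errors, the Fanconi anaemia pathway unhooks crosslinks, and translesion polymerases copy past damage. WIP1 is a phosphatase that switches off the signal from ATM and p53 after damage, and it acts on phosphorylated H2AX. Most repair proteins are controlled by modification and recruitment, so the RNA level of a repair gene is not a measure of repair.

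Recovered reads in genes were 48.4 to 49.4 M per library in the GSK2830371 group, 47.2 to 48.8 M in the DMSO group and 48.5 to 64.6 M in controls. The targeted transgene checked the labels: Tert reads were higher in both i-TERTci groups, by 2.41 (adjusted p 0.00484) in the GSK2830371 group and 3.24 (adjusted p 0.000621) in the DMSO group on the log2 scale. Mitochondrial genes took 5.07% to 8.35% of reads in the GSK2830371 group, 4.95% to 9.52% in the DMSO group and 14.4% to 24.2% in controls. Xist reads marked 3 of 5 GSK2830371 libraries, 2 of 5 DMSO libraries and all 4 control libraries as female, and the 3 female GSK2830371 libraries were all from day 49. Proximal tubule markers passed as lower for 7 of 9 genes in the GSK2830371 group and 6 of 9 in the DMSO group, with a summed normalised count of 116800 to 708400 in the GSK2830371 group, 190500 to 1425000 in the DMSO group and 1389000 to 2172000 in controls. Neutrophil markers rose for 7 of 7 genes in both i-TERTci groups, with sums of 330.5 to 15390 in the GSK2830371 group, 578.2 to 24850 in the DMSO group and 6.57 to 87.3 in controls, where Ly6g was at 0 in all libraries. Podocyte markers fell for 2 of 5 genes in each i-TERTci group, and macrophage markers rose for 2 of 6, while another of them, Csf1r, fell in the DMSO group (−0.86, adjusted p 0.0327). Of 14 S phase and mitosis markers, 1 rose in the GSK2830371 group and 2 in the DMSO group. The part of these differences in the repair gene results was not tested. In whole kidney RNA, fewer cells of a type and less RNA per cell cannot be told apart.

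A minority of the repair genes changed, and most of the changes were under 2-fold. In the GSK2830371 group 5 of the 35 genes rose and 7 fell against controls, so 34.3% passed the threshold of an adjusted p under 0.05 in limma, against 46.3% of all genes tested (24.3% rose and 22.0% fell). In the DMSO group 4 rose and 5 fell, or 25.7%, against 48.3% of all genes (25.2% rose and 23.1% fell). Both shares were below the share of all genes tested. The median log2 change of the 35 genes was 0.01 in the GSK2830371 group and 0.03 in the DMSO group, and over all genes it was 0.01 in the GSK2830371 comparison and 0.03 in the DMSO comparison. The libraries of the 2 groups did not overlap for 9 of the 35 genes in the GSK2830371 comparison (40.3% of all genes) and for 6 of 35 in the DMSO comparison (38.8% of all genes). Both comparisons use the same 4 controls. Passing in both were 7 genes, of which Xrcc1, Lig3, Mutyh, Ercc2 and Rnf8 fell and Mre11a and Parp2 rose, while 21 genes passed in neither. The share of all genes that passed in both was not counted, so the overlap is not read as particular to repair genes. Scaling to total reads, which counts the mitochondrial reads, moved the median log2 change of all genes to 0.34 in both comparisons. The split then became 8 rises and 0 falls in the GSK2830371 group and 9 rises and 1 fall in the DMSO group. Scaling to reads outside mitochondrial genes gave 5 rises and 4 falls in the GSK2830371 group and 5 rises and 2 falls in the DMSO group. Directions below are thus relative to the median gene.

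**Figure D1:**
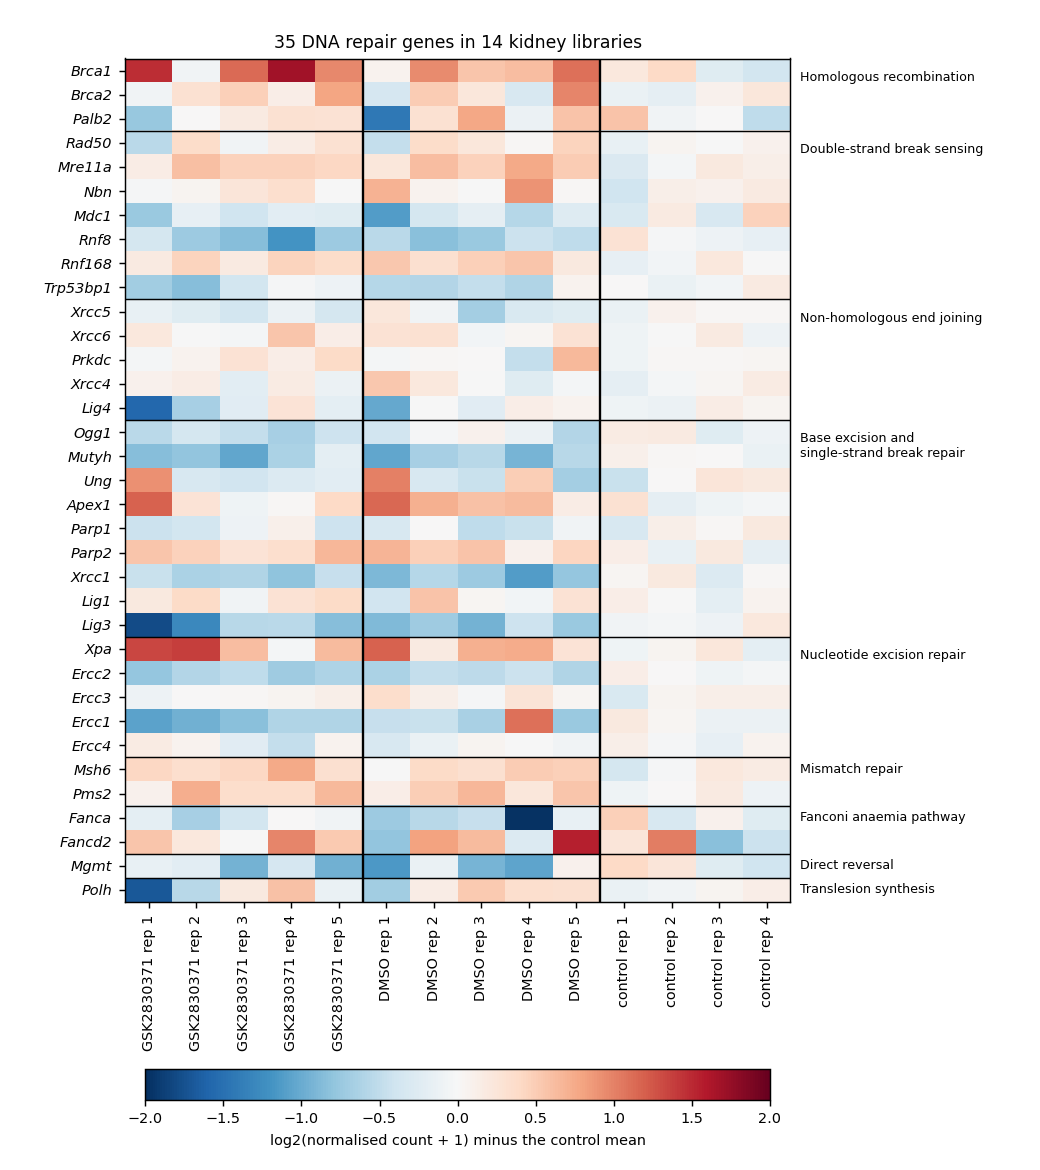
Each row is a repair gene, grouped by pathway, and each column a library, with the 5 GSK2830371 libraries on the left, the 5 DMSO libraries in the middle and the 4 controls on the right. Colour is log2(normalised count + 1) minus the control mean of that gene. The rows of Lig3, Xrcc1, Ercc2, Rnf8 and Mutyh are blue in all 10 i-TERTci libraries, while most other rows mix colours within a group.

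**Figure D2:**
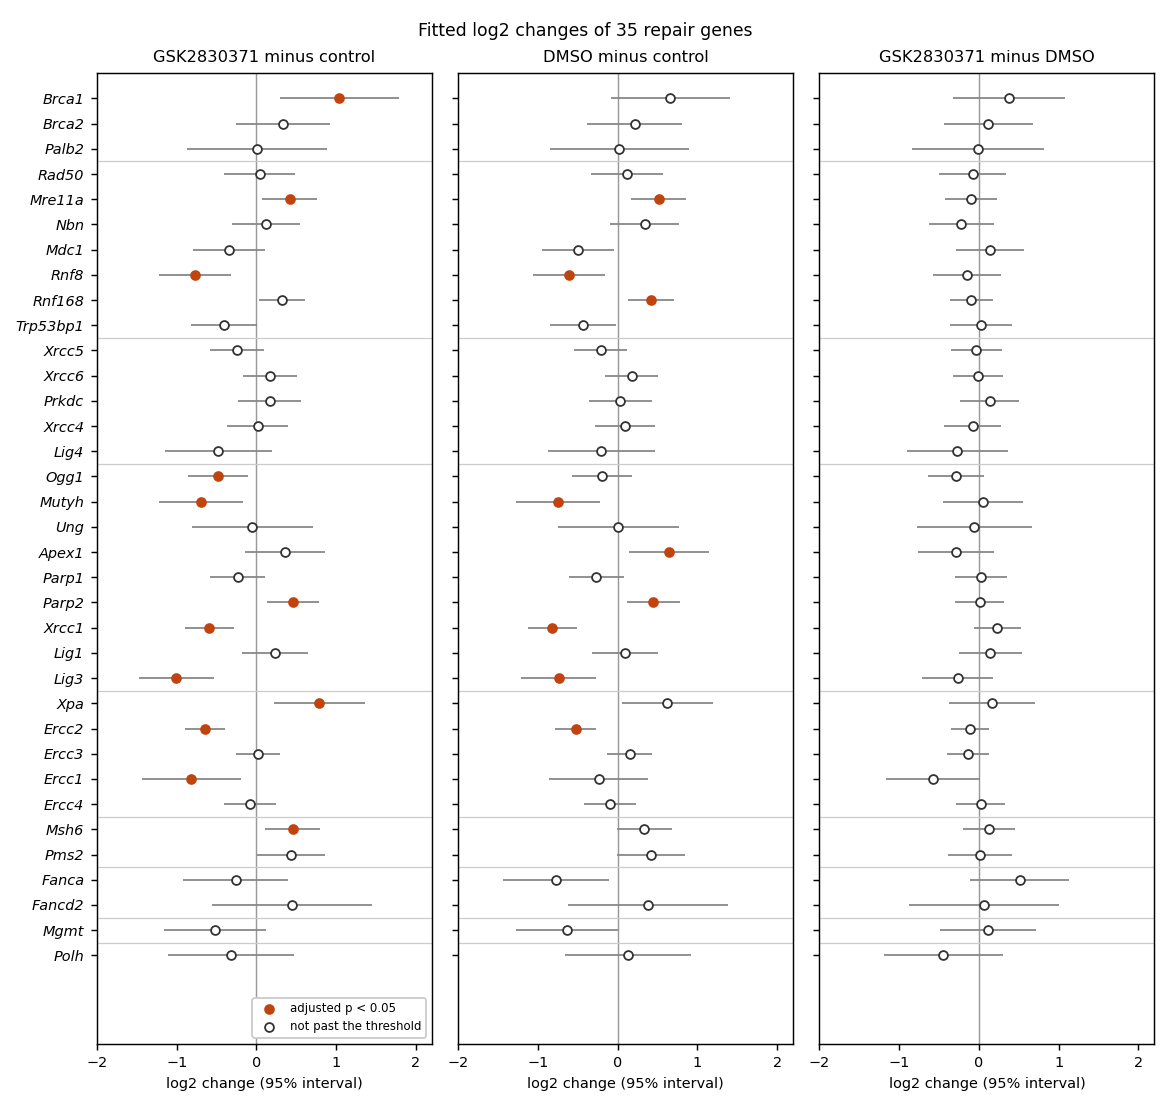
Points are the fitted log2 changes of the 35 genes and lines their 95% intervals, for GSK2830371 minus control, DMSO minus control and GSK2830371 minus DMSO. Filled points passed an adjusted p of 0.05 over all 18810 genes, which 12, 9 and 0 genes did in the 3 panels.

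Transcript base composition moved with these changes. Across all genes split into 5 bins by the GC content of their longest transcript, the median log2 change in the GSK2830371 group was 0.36 in the bin of lowest GC and −0.41 in the bin of highest GC, and in the DMSO group 0.41 in the bin of lowest and −0.42 in the bin of highest GC. Between the i-TERTci groups the medians of these bins were −0.03 and 0.02. The repair genes that fell in the GSK2830371 group had a median transcript GC of 54.7% and those that rose one of 47.4%, and in the DMSO group those that fell had 54.3% and those that rose 46.6%, beside 49.7% over all genes tested. A fit with each library's values corrected for GC, added after the data had been seen, kept 4 of the 12 calls in the GSK2830371 group, the falls of Lig3 and Rnf8 and the rises of Xpa and Msh6, and added a fall of Xrcc5. In the DMSO group it kept 3 of 9, the falls of Lig3 and Rnf8 and the rise of Apex1, and added falls of Xrcc5 and Trp53bp1. Whether base composition reflects the libraries or the kidneys was not tested, and below the GC-corrected value is given for each of the 35 genes in the comparisons where it passed.

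**Figure D3:**
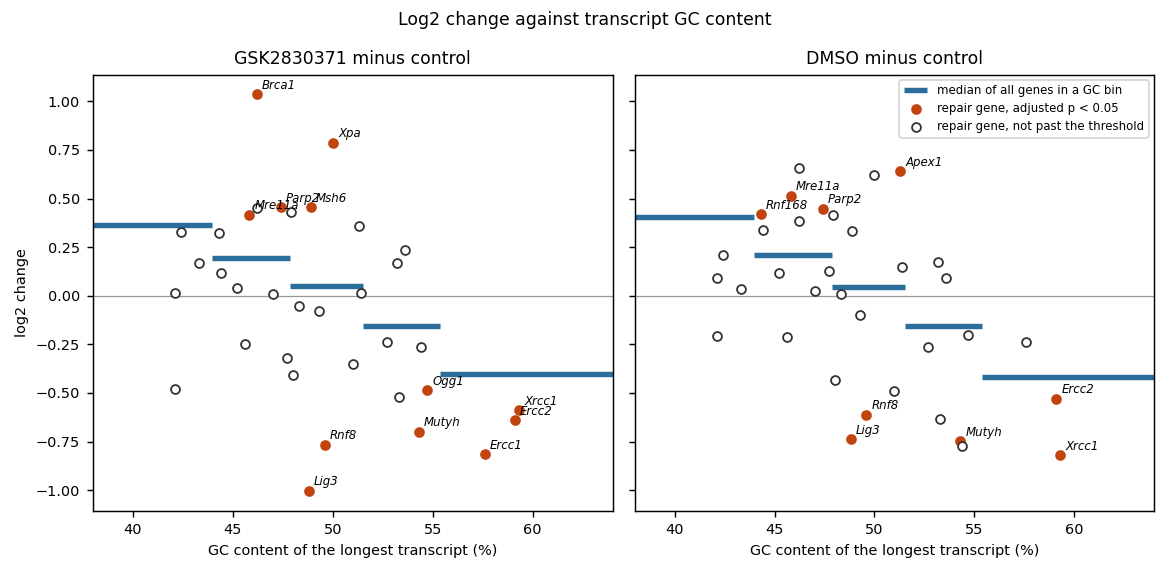
The horizontal axis is the GC content of a gene's longest transcript, trimmed to 38% to 64%, and the vertical axis the log2 change against controls, for GSK2830371 on the left and DMSO on the right. Circles are repair genes (filled where they passed) and bars the medians of all genes in 5 bins of GC content. The filled points below 0 other than Lig3 and Rnf8 lie at the GC-rich side.

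In base excision and single-strand break repair, 5 of 9 genes passed in each i-TERTci group, or 55.6%, which is near the 46.3% of all genes in the GSK2830371 comparison and 48.3% in the DMSO comparison. In the GSK2830371 group Lig3, Mutyh, Xrcc1 and Ogg1 fell and Parp2 rose. In the DMSO group Xrcc1, Mutyh and Lig3 fell, and Apex1 and Parp2 rose. Xrcc1 is the scaffold that holds the single-strand break machinery together and Lig3 the ligase bound to it, which also seals DNA in mitochondria. Their transcripts come from Lig3 (ENSMUSG00000020697, chr11:82781108-82804274, + strand) and Xrcc1 (ENSMUSG00000051768, chr7:24546289-24573440, + strand) of the GRCm38 build. The 300-base RefSeq promoter windows (GRCm38.p6, 250 bases before to 50 after the gene's start, + strand) are shown for this pair because both genes fell in both groups. RefSeq places the start of Xrcc1 inside the gene span given above, so its window lies wholly within that span. Capitals mark GGGCGG and CCAAT on either strand.
Lig3 chr11:82780859-82781158: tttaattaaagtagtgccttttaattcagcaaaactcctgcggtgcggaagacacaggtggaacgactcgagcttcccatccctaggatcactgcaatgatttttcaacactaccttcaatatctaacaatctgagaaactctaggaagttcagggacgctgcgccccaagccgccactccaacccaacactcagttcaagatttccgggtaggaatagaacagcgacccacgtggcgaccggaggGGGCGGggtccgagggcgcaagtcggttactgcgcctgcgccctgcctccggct
Xrcc1 chr7:24546449-24546748: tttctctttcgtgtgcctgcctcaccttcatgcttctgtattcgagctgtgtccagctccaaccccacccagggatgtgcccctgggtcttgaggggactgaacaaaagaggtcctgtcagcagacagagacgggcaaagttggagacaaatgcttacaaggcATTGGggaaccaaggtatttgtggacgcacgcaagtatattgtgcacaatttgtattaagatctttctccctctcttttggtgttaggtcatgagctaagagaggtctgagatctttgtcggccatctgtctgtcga
The Lig3 window holds 1 GGGCGG and no CCAAT, and the Xrcc1 window holds 1 CCAAT and no GGGCGG, so these windows share neither motif. Sequence before the start of the Xrcc1 gene span was not searched.

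Lig3 had 607, 858, 1428, 1441 and 1168 normalised reads in the GSK2830371 libraries, 1136, 1286, 1085, 1576 and 1259 in the DMSO libraries and 1995, 2035, 1962 and 2432 in controls. Every i-TERTci library was below every control, and GSK2830371 replicates 1 and 2 were the lowest. Lig3 fell by 1.003 on the log2 scale in the GSK2830371 group (SE 0.22, adjusted p 0.00185), a 2.004-fold lower level, and by 0.74 in the DMSO group (SE 0.22, adjusted p 0.0123), a 1.67-fold lower level. Both calls held without any 1 library. The GC-corrected changes were −1.04 (adjusted p 0.00174) in the GSK2830371 group and −0.77 (adjusted p 0.0104) in the DMSO group. With an Xist covariate the DMSO change was −0.57 (adjusted p 0.0826). In the annotation, 25.07% of the Lig3 exon length lies opposite exons of Rffl, which changed by 0.16 in the GSK2830371 group and 0.59 in the DMSO group.

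Xrcc1 had 1097, 962, 984, 854 and 1087 normalised reads in the GSK2830371 libraries, 799, 1002, 901, 689 and 874 in the DMSO libraries and 1532, 1718, 1242 and 1527 in controls. All 10 i-TERTci libraries lay below all 4 controls, as for Lig3. Xrcc1 changed by −0.59 (SE 0.15, adjusted p 0.00407) in the GSK2830371 group and by −0.82 (SE 0.15, adjusted p 0.000344) in the DMSO group, and both calls held without any 1 library. Its transcript is among the most GC-rich of the 35, at 59.3%, and the GC-corrected changes were −0.07 (adjusted p 0.678) in the GSK2830371 group and −0.28 (adjusted p 0.0851) in the DMSO group, so neither call held. With mice of 31 days or fewer alone the GSK2830371 change was −0.44 (adjusted p 0.079).

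Mutyh and Ogg1 both act on oxidised guanine: Ogg1 cuts out 8-oxoguanine and Mutyh removes an adenine paired with it. Mutyh had 49.1, 51.0, 42.9, 57.0 and 77.7 normalised reads in the GSK2830371 libraries, 42.8, 55.7, 60.1, 46.0 and 60.4 in the DMSO libraries and 95.7, 90.2, 89.3 and 81.0 in controls. The controls lay above all i-TERTci libraries, with GSK2830371 replicate 5 closest to them. It changed by −0.70 (SE 0.25, adjusted p 0.0307) in the GSK2830371 group and −0.75 (SE 0.25, adjusted p 0.0211) in the DMSO group, with GC-corrected values of −0.45 (adjusted p 0.146) in the GSK2830371 group and −0.50 (adjusted p 0.105) in the DMSO group. The GSK2830371 call was lost without control 1, 2 or 3 or GSK2830371 replicate 1, 2 or 3 (adjusted p 0.0523 to 0.0701), and the DMSO call without control 2 (adjusted p 0.0508). Neither Mutyh call held with the Xist covariate (adjusted p 0.0513 in the GSK2830371 group and 0.0552 in the DMSO group). Both were also lost in mice of 31 days or fewer alone (adjusted p 0.252 in the GSK2830371 group and 0.0535 in the DMSO group). Ogg1 had 329.8, 377, 346, 302 and 359 normalised reads in the GSK2830371 libraries, 369.7, 472, 510.5, 444 and 319 in the DMSO libraries and 540.0, 541, 406 and 447 in controls. All GSK2830371 libraries were below the controls, while DMSO and control libraries overlapped. Ogg1 changed by −0.49 (SE 0.18, adjusted p 0.0338) in the GSK2830371 group and −0.20 (SE 0.18, adjusted p 0.364) in the DMSO group. The GSK2830371 call was lost without control 1 or 2 or GSK2830371 replicate 1, 3 or 4 (adjusted p 0.0514 to 0.102), and the GC-corrected value was −0.22 (adjusted p 0.28). That call was also lost in mice of 31 days or fewer alone (log2 change −0.47, adjusted p 0.157).

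Parp2, a poly(ADP-ribose) polymerase that responds to strand breaks, had 889, 837, 738, 764 and 959 normalised reads in the GSK2830371 libraries, 969.5, 848, 899.9, 647 and 816 in the DMSO libraries and 667, 548, 699.5 and 534 in controls. All GSK2830371 libraries were above the controls, and of the DMSO libraries replicate 4 lay within the control range. The change was 0.46 (SE 0.16, adjusted p 0.0247) in the GSK2830371 group and 0.45 (SE 0.16, adjusted p 0.026) in the DMSO group, and the GC-corrected values were 0.36 (adjusted p 0.0638) in the GSK2830371 group and 0.35 (adjusted p 0.0724) in the DMSO group. Corrected for both GC and transcript length, Parp2 passed, at 0.40 (adjusted p 0.0303) in the GSK2830371 group and 0.36 (adjusted p 0.0453) in the DMSO group. With the Xist covariate neither call held (adjusted p 0.0644 in the GSK2830371 group and 0.117 in the DMSO group). Without control 2 or 4 or GSK2830371 replicate 5 the GSK2830371 call was lost (adjusted p 0.06 to 0.0828), and the DMSO call was lost without control 2 or 4 or DMSO replicate 1 or 3 (adjusted p 0.0526 to 0.0864). Its better known relative Parp1 had 1609, 1697, 2041, 2348 and 1643 normalised reads in the GSK2830371 libraries, 1746, 2201, 1529.5, 1602 and 2076 in the DMSO libraries and 1736, 2359, 2216 and 2484 in controls. The 3 groups overlapped, and the changes were −0.24 (SE 0.16, adjusted p 0.245) in the GSK2830371 group and −0.27 (SE 0.16, adjusted p 0.192) in the DMSO group.

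Apex1, the endonuclease that cuts at the abasic sites glycosylases leave, had 2012, 1077, 841, 904 and 1181 normalised reads in the GSK2830371 libraries, 1983, 1458, 1333, 1376 and 985 in the DMSO libraries and 1098, 787, 841 and 871 in controls. Replicate 1 was the highest library of both i-TERTci groups, and the groups overlapped. Apex1 changed by 0.36 (SE 0.24, adjusted p 0.231) in the GSK2830371 group and by 0.64 (SE 0.24, adjusted p 0.0358) in the DMSO group, with a GC-corrected DMSO change of 0.72 (adjusted p 0.0216). The DMSO call was lost without control 2, 3 or 4 or DMSO replicate 1, 2, 3 or 4 (adjusted p 0.0501 to 0.0941) and with the Xist covariate (log2 change 0.32, adjusted p 0.292). Exons of Pip4p1 lie opposite 61.67% of the Apex1 exon length, and Pip4p1 changed by −0.17 in the GSK2830371 group and −0.16 in the DMSO group. The uracil glycosylase Ung (−0.05 in the GSK2830371 group and 0.01 in the DMSO group) and the replicative ligase Lig1 (0.24 in the GSK2830371 group and 0.09 in the DMSO group) did not pass. Per transcript length, Apex1 was the most abundant of the 9 genes in each group, at 52.0 TPM (transcript abundance per length, scaled to a common total) in the GSK2830371 group, 57.4 in the DMSO group and 24.2 in controls, followed by Parp1 at 22.5 TPM in the GSK2830371 group, 20.8 in the DMSO group and 16.3 in controls. Here and below TPM only orders genes within a group. Its levels are not compared between groups, because they move with the scaling to total reads given above and with each library's length-scaled total. Mutyh and Ung were the lowest pair, between 1.05 and 1.63 TPM.

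**Figure D4:**
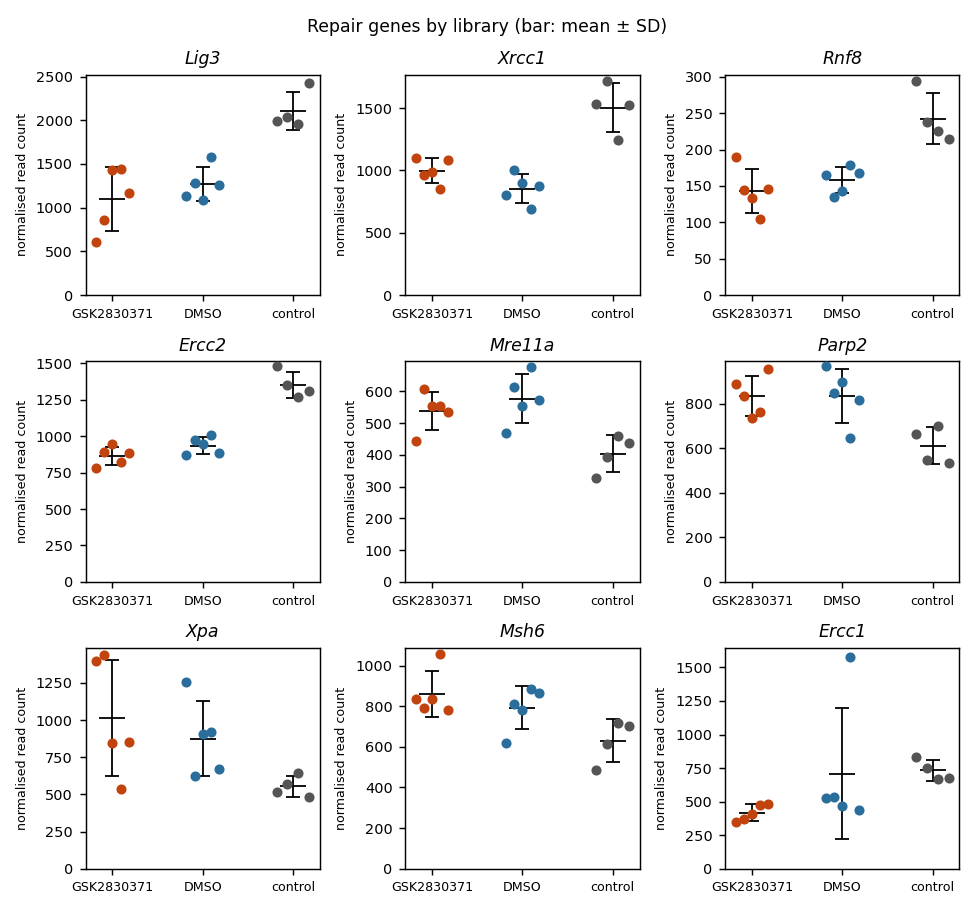
Normalised read counts of 9 repair genes, with a point for each library, the mean and the SD, for GSK2830371 (n = 5), DMSO (n = 5) and control (n = 4) from left to right in each panel. Lig3, Xrcc1, Rnf8 and Ercc2 lie lower in all i-TERTci libraries than in all controls, while in Ercc1 DMSO replicate 4 stands at 1575 against 436.0 to 533.6 in the other DMSO libraries.

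Among the 7 genes that sense and mark double-strand breaks, Rnf8 fell and Mre11a rose in both i-TERTci groups, and Rnf168 rose in the DMSO group. That is 28.6% in the GSK2830371 comparison, beside 46.3% of all genes, and 42.9% in the DMSO comparison, beside 48.3%. With 7 genes, the pathway is not set apart from the shares of all genes. Rnf8 and Rnf168 are ubiquitin ligases that act one after the other on chromatin next to a break, and Mre11a is the nuclease of the MRN complex. The promoter windows of Rnf8 (ENSMUSG00000090083, chr17:29614790-29644991, + strand) and Mre11a (ENSMUSG00000031928, chr9:14784654-14837123, + strand) are shown because the pair moved in opposite directions in both groups, with the same marking and build as above, + strand.
Rnf8 chr17:29614539-29614838: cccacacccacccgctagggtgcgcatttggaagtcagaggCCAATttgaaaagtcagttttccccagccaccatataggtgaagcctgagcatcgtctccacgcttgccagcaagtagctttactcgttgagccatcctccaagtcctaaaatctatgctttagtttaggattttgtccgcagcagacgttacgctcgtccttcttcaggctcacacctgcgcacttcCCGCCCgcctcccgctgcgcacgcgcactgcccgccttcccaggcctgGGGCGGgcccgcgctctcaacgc
Mre11a chr9:14784404-14784703: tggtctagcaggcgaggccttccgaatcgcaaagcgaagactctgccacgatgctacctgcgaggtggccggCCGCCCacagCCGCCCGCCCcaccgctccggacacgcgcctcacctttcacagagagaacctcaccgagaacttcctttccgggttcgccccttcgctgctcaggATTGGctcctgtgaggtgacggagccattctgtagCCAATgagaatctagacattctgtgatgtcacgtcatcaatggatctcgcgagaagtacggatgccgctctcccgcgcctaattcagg
Both windows hold CCAAT and GGGCGG: 1 and 2 matches in Rnf8, and 2 and 3 in Mre11a, where 2 of the GGGCGG matches overlap.

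Rnf8 had 189, 145, 134, 105 and 145 normalised reads in the GSK2830371 libraries, 165, 135, 144, 179 and 169 in the DMSO libraries and 294, 238, 225 and 215 in controls. All i-TERTci libraries were below all controls. Rnf8 changed by −0.77 (SE 0.21, adjusted p 0.00825) in the GSK2830371 group, a 1.70-fold lower level, and by −0.61 (SE 0.21, adjusted p 0.0263) in the DMSO group. The GC-corrected values were −0.77 (adjusted p 0.00836) in the GSK2830371 group and −0.62 (adjusted p 0.0258) in the DMSO group. The DMSO call was lost without control 1 or 2 or DMSO replicate 2 or 3 (adjusted p 0.0546 to 0.0805), and the GSK2830371 call held without any 1 library but not in mice of 31 days or fewer alone (log2 change −0.53, adjusted p 0.145). On the same strand, exons of Gm28043 overlap 13.18% of the Rnf8 exon length, and Gm28043 rose by 1.42 in the GSK2830371 group and 1.23 in the DMSO group, so how shared reads were assigned bears on both values.

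Mre11a had 443, 607, 555, 553 and 536 normalised reads in the GSK2830371 libraries, 470.1, 613, 556, 677 and 573 in the DMSO libraries and 328, 393, 461 and 436 in controls. The DMSO libraries were all above the controls, and GSK2830371 replicate 1 alone lay within the control range. The changes were 0.42 (SE 0.16, adjusted p 0.0473) in the GSK2830371 group and 0.52 (SE 0.16, adjusted p 0.0169) in the DMSO group, and GC-corrected 0.25 (adjusted p 0.214) in the GSK2830371 group and 0.34 (adjusted p 0.099) in the DMSO group. The GSK2830371 call was lost in 10 of the 14 fits that left out a library (all but those without control 3, DMSO replicate 1 or 4, or GSK2830371 replicate 1; adjusted p 0.0539 to 0.152), and the DMSO call without control 1 (adjusted p 0.0628). Neither Mre11a call held in mice of 31 days or fewer alone (adjusted p 0.319 in the GSK2830371 group and 0.057 in the DMSO group). The other MRN subunits did not pass: Rad50, the ATPase, changed by 0.04 in the GSK2830371 group and 0.12 in the DMSO group, and Nbn, which recruits ATM, by 0.12 in the GSK2830371 group and 0.34 in the DMSO group.

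Rnf168 had 929, 1119.9, 931, 1120.4 and 1059 normalised reads in the GSK2830371 libraries, 1197, 1027, 1150.4, 1211 and 939 in the DMSO libraries and 738, 794, 952 and 822 in controls. Control 3 lay within the range of both i-TERTci groups, and the other controls lay below them. It changed by 0.32 (SE 0.14, adjusted p 0.0624) in the GSK2830371 group and by 0.42 (SE 0.14, adjusted p 0.0184) in the DMSO group, where the GC-corrected value was 0.17 (adjusted p 0.288) and the call was lost without control 1 or 2 (adjusted p 0.0518 to 0.0567). The DMSO call was also lost with the Xist covariate (adjusted p 0.0874) and in mice of 31 days or fewer alone (adjusted p 0.0588). Without control 3 the GSK2830371 change was 0.39 (adjusted p 0.0384). Trp53bp1, which shields broken ends from resection, had 697, 627, 880.3, 1114 and 1061 normalised reads in the GSK2830371 libraries, 764, 755, 812, 744 and 1186 in the DMSO libraries and 1139, 1030.3, 1093 and 1285 in controls. The lower DMSO libraries were below all controls, but replicate 5 was not, and 2 GSK2830371 libraries also reached the control range. Trp53bp1 changed by −0.41 (SE 0.19, adjusted p 0.0943) in the GSK2830371 group and −0.44 (SE 0.19, adjusted p 0.0728) in the DMSO group, and GC-corrected by −0.47 (adjusted p 0.0536) in the GSK2830371 group and −0.51 (adjusted p 0.0396) in the DMSO group. Corrected for both GC and transcript length, Trp53bp1 passed as lower, at −0.61 (adjusted p 0.0106) in the GSK2830371 group and −0.56 (adjusted p 0.015) in the DMSO group. Without DMSO replicate 5 the DMSO change was −0.56 (adjusted p 0.0207), and without GSK2830371 replicate 4 the GSK2830371 change was −0.50 (adjusted p 0.045). Exons of Tubgcp4 lie opposite 15.04% of its exon length, and Tubgcp4 fell by 1.10 in the GSK2830371 group and by 0.97 in the DMSO group. Mdc1, the scaffold on phosphorylated H2AX, changed by −0.35 (SE 0.21, adjusted p 0.191) in the GSK2830371 group and −0.49 (SE 0.21, adjusted p 0.0668) in the DMSO group, where it passed as lower without control 1 or 3 or DMSO replicate 3 (adjusted p 0.0499, 0.0438 and 0.0493).

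Of the 3 genes of homologous recombination, Brca1 rose in the GSK2830371 group and none passed in the DMSO group. Beside 46.3% of all genes in the GSK2830371 comparison and 48.3% in the DMSO comparison, 3 genes are too few to set apart. Brca1, which promotes resection of the ends and is made mostly in dividing cells, had 119, 40.2, 92.8, 137 and 82.8 normalised reads in the GSK2830371 libraries, 44.1, 81.7, 61.9, 65.3 and 91.4 in the DMSO libraries and 49.0, 55.4, 35.5 and 32.2 in controls. GSK2830371 replicate 2 lay within the control range, the other 4 above it. Brca1 changed by 1.04 (SE 0.35, adjusted p 0.0243) in the GSK2830371 group, a 2.05-fold higher level, and by 0.66 (SE 0.35, adjusted p 0.134) in the DMSO group, and the difference between the i-TERTci groups was 0.38 (SE 0.33, adjusted p 0.994). Omission of control 3 or 4 or GSK2830371 replicate 1 or 4 ended the GSK2830371 call (adjusted p 0.0571 to 0.0769), as did GC correction (0.89 (adjusted p 0.0549)). In this group 1 of 14 markers of cycling cells rose, namely Pcna, which is also a repair gene. The part of cycling cells in the Brca1 change was not tested. Brca2, which acts after resection of the ends, changed by 0.33 in the GSK2830371 group and 0.21 in the DMSO group, and Palb2, the bridge between Brca1 and Brca2, by 0.01 in the GSK2830371 group and 0.02 in the DMSO group. These 3 genes were at low levels, with means of 0.696, 0.979 and 0.501 TPM for Brca1, Brca2 and Palb2 in the GSK2830371 group and 0.192, 0.466 and 0.293 TPM in controls. The TPM values do not compare the groups: Palb2, at 0.501 and 0.293 TPM, changed by 0.01 in normalised reads.

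None of the 5 genes of non-homologous end joining passed in either i-TERTci group. Of all genes, 46.3% passed in the GSK2830371 comparison and 48.3% in the DMSO comparison. With 5 genes, the pathway is not set apart from these shares. The pathway's core is the Ku pair of Xrcc5 and Xrcc6, which clasps broken ends, the kinase Prkdc, and the ligase Lig4 with its partner Xrcc4. Prkdc had 642, 699, 806, 729 and 863 normalised reads in the GSK2830371 libraries, 645, 671, 663, 477 and 1041 in the DMSO libraries and 625, 672, 676 and 677 in controls. The controls were tightly grouped and overlapped both i-TERTci groups, with DMSO replicate 4 the lowest and DMSO replicate 5 the highest library of all. Its 95% interval was −0.23 to 0.56 in the GSK2830371 group and −0.36 to 0.43 in the DMSO group. The intervals of Xrcc5 (−0.58 to 0.09 in the GSK2830371 group and −0.55 to 0.12 in the DMSO group), Xrcc6 (−0.16 to 0.50 in the GSK2830371 group and −0.16 to 0.51 in the DMSO group) and Xrcc4 (−0.36 to 0.39 in the GSK2830371 group and −0.29 to 0.47 in the DMSO group) also stayed within 0.6 of 0, so doublings and halvings are outside them. Lig4 was less precise, at −1.15 to 0.19 in the GSK2830371 group and −0.88 to 0.46 in the DMSO group. With GC correction Xrcc5 passed as lower, at −0.42 (adjusted p 0.0382) in the GSK2830371 group and −0.41 (adjusted p 0.0434) in the DMSO group. With GC and length correction it did not pass (adjusted p 0.05 in the GSK2830371 group and 0.0526 in the DMSO group). Under that correction Lig4 passed as lower in the GSK2830371 group (−0.83, adjusted p 0.0361) but not in the DMSO group (−0.54, adjusted p 0.153). Per length Xrcc5 was the most abundant of the 35 genes in controls, at 31.9 TPM. In the i-TERTci groups only Apex1 stood above it, with Xrcc5 at 43.6 TPM in the GSK2830371 group and 41.7 TPM in the DMSO group. These values order genes within a group and do not show a rise of Xrcc5, whose intervals in normalised reads are given above.

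In nucleotide excision repair, Ercc2 fell in both i-TERTci groups, and in the GSK2830371 group Ercc1 fell and Xpa rose, so 3 of 5 genes passed there and 1 of 5 in the DMSO group. Over all genes 46.3% passed in the GSK2830371 comparison and 48.3% in the DMSO comparison, and 5 genes are too few to set apart from these shares. Ercc2 is the XPD helicase that opens DNA around a lesion as part of TFIIH, Xpa verifies the lesion, and Ercc1 forms the nuclease with Ercc4. Ercc2 had 785, 895, 945, 825 and 881 normalised reads in the GSK2830371 libraries, 872, 971, 943, 1005 and 887 in the DMSO libraries and 1479, 1349.6, 1266 and 1309.7 in controls. The i-TERTci libraries were all below the controls, with little spread in any group. The change was −0.64 (SE 0.12, adjusted p 0.000523) in the GSK2830371 group and −0.53 (SE 0.12, adjusted p 0.00192) in the DMSO group, and both calls held without any 1 library. The transcript is 59.1% GC, and the GC-corrected changes were −0.13 (adjusted p 0.371) in the GSK2830371 group and 0.00 (adjusted p 0.984) in the DMSO group, where the sign turned. Exons of Gm26852 lie opposite 24.58% of the Ercc2 exon length and those of Klc3 opposite 17.84%, and Klc3 rose by 0.93 in the GSK2830371 group and 0.84 in the DMSO group.

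Xpa had 1396, 1435, 845, 537 and 853 normalised reads in the GSK2830371 libraries, 1254, 625, 905, 920.3 and 669 in the DMSO libraries and 519, 570.1, 644 and 483 in controls. Replicates 1 and 2 of the GSK2830371 group and replicate 1 of the DMSO group stood above the rest, and GSK2830371 replicate 4 and DMSO replicate 2 lay within the control range. Xpa changed by 0.79 (SE 0.27, adjusted p 0.0251) in the GSK2830371 group, a 1.73-fold higher level, and by 0.62 (SE 0.27, adjusted p 0.0671) in the DMSO group, with GC-corrected values of 0.80 (adjusted p 0.0254) in the GSK2830371 group and 0.64 (adjusted p 0.066) in the DMSO group. The GSK2830371 call was lost without control 1 or 4 or GSK2830371 replicate 1 or 2 (adjusted p 0.0605 to 0.0704) and with the Xist covariate (log2 change 0.59, adjusted p 0.0806). The DMSO change passed without DMSO replicate 2 (0.73, adjusted p 0.0428) or GSK2830371 replicate 4 (0.62, adjusted p 0.0349). Ercc1 had 347, 373, 407, 479 and 482 normalised reads in the GSK2830371 libraries, 530.0, 534, 465, 1575 and 436 in the DMSO libraries and 836, 749, 671 and 676 in controls. The GSK2830371 libraries were all below the controls, and so were all DMSO libraries but replicate 4, which was above every other library. Ercc1 changed by −0.82 (SE 0.30, adjusted p 0.0327) in the GSK2830371 group and −0.24 (SE 0.30, adjusted p 0.525) in the DMSO group, and without DMSO replicate 4 the DMSO change was −0.58 (adjusted p 0.01). Without control 1, 2 or 4 or GSK2830371 replicate 1, 2 or 3 the GSK2830371 call was lost (adjusted p 0.0512 to 0.0838), as it was with GC correction (−0.39 (adjusted p 0.313)). Ercc3, the second TFIIH helicase, changed by 0.02 in the GSK2830371 group and 0.15 in the DMSO group, and Ercc4 by −0.08 in the GSK2830371 group and −0.10 in the DMSO group, neither past the threshold.

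In mismatch repair, Msh6, which recognises mispaired bases, rose in the GSK2830371 group. It had 834, 791, 834, 1056 and 781 normalised reads in the GSK2830371 libraries, 617, 810.2, 781, 884 and 864 in the DMSO libraries and 488, 613, 719 and 702 in controls. All GSK2830371 libraries were above the controls, and DMSO replicate 1 lay within the control range. Msh6 changed by 0.45 (SE 0.16, adjusted p 0.0315) in the GSK2830371 group and 0.33 (SE 0.16, adjusted p 0.102) in the DMSO group, and GC-corrected by 0.43 (adjusted p 0.0411) in the GSK2830371 group. That call was lost without control 1 or 2 or GSK2830371 replicate 4 (adjusted p 0.0714 to 0.12) and in mice of 31 days or fewer alone (log2 change 0.39, adjusted p 0.183). Without DMSO replicate 1 the DMSO change was 0.42 (adjusted p 0.0407), and without control 1 it was 0.21 (adjusted p 0.315). Pms2, an endonuclease of this pathway, changed by 0.43 (SE 0.20, adjusted p 0.0887) in the GSK2830371 group and 0.42 (SE 0.20, adjusted p 0.0989) in the DMSO group.

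The remaining 4 genes did not pass in either group, beside 46.3% of all genes in the GSK2830371 comparison and 48.3% in the DMSO comparison. Fancd2, the protein ubiquitinated at crosslinks, was the lowest of the 35 genes per length, at 0.2998 TPM in the GSK2830371 group, 0.330 in the DMSO group and 0.139 in controls. It had 38.8, 30.4, 25.95, 52.6 and 38.0 normalised reads in the GSK2830371 libraries, 14.7, 46.4, 41.3, 21.4 and 78.8 in the DMSO libraries and 31.2, 54.5, 14.2 and 19.1 in controls. The 3 groups overlapped widely, and the 95% intervals of −0.55 to 1.45 in the GSK2830371 group and −0.62 to 1.39 in the DMSO group cover a doubling. Fanca, of the core complex, changed by −0.26 (SE 0.31, adjusted p 0.511) in the GSK2830371 group and −0.77 (SE 0.31, adjusted p 0.0516) in the DMSO group, where DMSO replicate 4 was lowest at 86.7 normalised reads and the change was −0.92 (adjusted p 0.0246) without DMSO replicate 5 and −0.47 (adjusted p 0.102) without DMSO replicate 4. Mgmt, which takes alkyl groups off guanine, had 296, 282, 169, 259.5 and 168 normalised reads in the GSK2830371 libraries, 147, 298, 172, 156 and 349 in the DMSO libraries and 433, 386, 275 and 249 in controls. DMSO replicates 2 and 5 lay within the control range and the other 3 below it. Mgmt changed by −0.52 (SE 0.30, adjusted p 0.168) in the GSK2830371 group and −0.64 (SE 0.30, adjusted p 0.0921) in the DMSO group, and the DMSO change was −0.81 (adjusted p 0.0315) without DMSO replicate 5 and −0.51 (adjusted p 0.185) without DMSO replicate 1. Polh, a polymerase that copies past ultraviolet lesions, had 61.6, 138, 233, 304 and 185 normalised reads in the GSK2830371 libraries, 125, 225, 291, 257 and 254 in the DMSO libraries and 186, 193, 211 and 223 in controls. Replicate 1 of each i-TERTci group was its lowest, and the changes were −0.32 (SE 0.37, adjusted p 0.502) in the GSK2830371 group and 0.13 (SE 0.37, adjusted p 0.8) in the DMSO group.

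**Figure D5:**
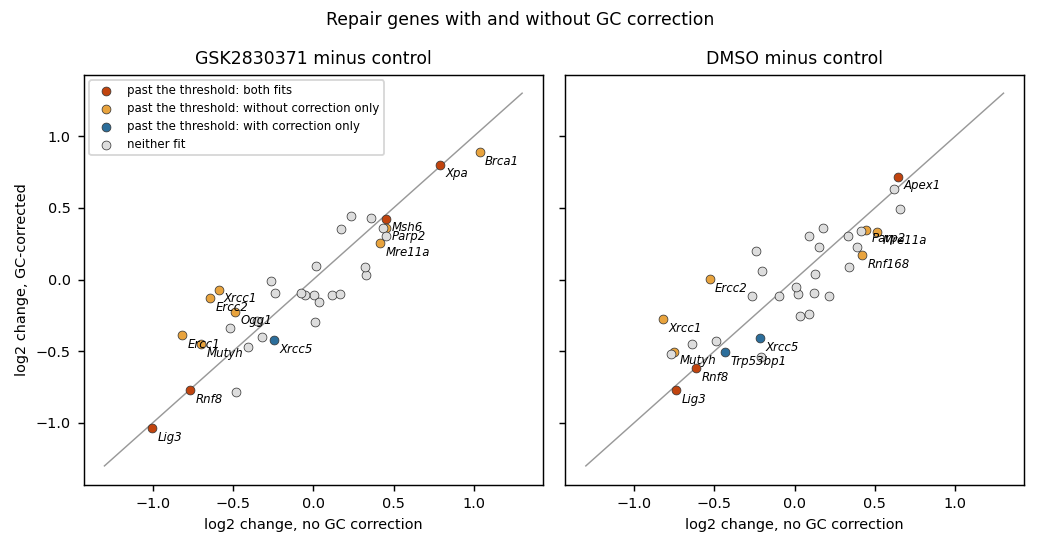
Each point is a repair gene, with its log2 change without GC correction on the horizontal axis and with it on the vertical axis, for GSK2830371 minus control on the left and DMSO minus control on the right. Colours show in which fits the gene passed an adjusted p of 0.05. Xrcc1 and Ercc2 lie well above the line of equal values, at −0.07 and −0.13 after correction in the GSK2830371 panel, while Lig3 and Rnf8 lie on it.

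The inhibitor group was also set against the vehicle group within i-TERTci kidneys. These groups differed in more than the inhibitor: 3 of 5 GSK2830371 mice were collected at day 49, and no DMSO mouse after day 38. Those 3 were also the only female GSK2830371 libraries by Xist, beside 2 of 5 DMSO libraries. Inhibitor, time on doxycycline and sex thus cannot be fully told apart in this comparison. None of the 35 repair genes passed between GSK2830371 and DMSO, where 0.0% of all genes passed in limma, and none had an unadjusted p under 0.05, which 4.25% of all genes had. DESeq2 and edgeR's quasi-likelihood test on the recovered reads also called 0 of the 35. The groups overlapped for all 35 genes. The median log2 difference was −0.01, the same as over all genes. Ercc1 had the lowest difference, −0.58 with an unadjusted p of 0.0541 and a 95% interval of −1.17 to 0.01, and without DMSO replicate 4, the highest of all 14 libraries, it was −0.24. Fanca had the highest difference, 0.51 with an interval of −0.12 to 1.13, and it was 0.21 without DMSO replicate 4. For Lig3 the interval was −0.71 to 0.18, for Xrcc1 −0.06 to 0.52, for Rnf8 −0.58 to 0.27 and for Ercc2 −0.35 to 0.13, and each interval stopped short of the DMSO group's own distance from controls. The 7 genes that passed in only 1 of the 2 control comparisons (Brca1, Xpa, Msh6, Ogg1 and Ercc1 in the GSK2830371 group, Rnf168 and Apex1 in the DMSO group) did not pass between the 2 i-TERTci groups, with log2 differences from −0.58 for Ercc1 to 0.38 for Brca1. Ppm1d itself, the gene of the inhibited phosphatase, changed by −0.38 (adjusted p 0.0659) in the GSK2830371 group and −0.72 (adjusted p 0.002) in the DMSO group against controls. Cdkn1a, the p53 target that stops the cell cycle after damage, rose by 3.26 (adjusted p 0.000342) in the GSK2830371 group and 2.89 (adjusted p 0.000744) in the DMSO group. Neither gene passed between GSK2830371 and DMSO, where Ppm1d differed by 0.338 (adjusted p 0.994) and Cdkn1a by 0.375 (adjusted p 0.994).

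A longer list of 110 other repair genes placed the 35 among their pathways. In the GSK2830371 group 30 of the 110 rose and 20 fell, or 45.5%, and in the DMSO group 31 rose and 16 fell, or 42.7%. These shares were near those of all genes. In both comparisons, 26 of the 110 rose and 15 fell, with no matching share of all genes counted and the same controls used in both. Total-read scaling gave 38 rises and 6 falls in each comparison. Between GSK2830371 and DMSO none passed, and 3 had an unadjusted p under 0.05. Translesion synthesis had 4 rises and 2 falls among 7 genes in each i-TERTci group, or 85.7%. Of all genes, 46.3% passed in the GSK2830371 comparison and 48.3% in the DMSO comparison. This was the highest share among the 9 pathways of the list, and it rests on 7 genes, so it is not read as a result about the pathway. With GC correction 5 of the 6 calls held in the GSK2830371 group and 6 of 6 in the DMSO group. Pcna, the sliding clamp of replication and repair synthesis, averaged 1914 ± 304 normalised reads in the GSK2830371 group, 2325 ± 364 in the DMSO group and 833 ± 121 in controls (SD), and changed by 1.20 (SE 0.16, adjusted p 3.97e-05) in the GSK2830371 group and 1.48 (SE 0.16, adjusted p 5.85e-06) in the DMSO group. Pcna is also among the 14 S phase and mitosis markers given above. The low-fidelity polymerase gene Poli changed by −1.52 (SE 0.26, adjusted p 0.000231) in the GSK2830371 group and −1.66 (SE 0.26, adjusted p 0.000106) in the DMSO group.

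In the double-strand break branch, H2ax, the histone whose phosphorylated form WIP1 acts on, averaged 400.0 ± 94.8 normalised reads in the GSK2830371 group, 502 ± 140.0 in the DMSO group and 1426 ± 382 in controls. It changed by −1.82 (SE 0.25, adjusted p 4.17e-05) in the GSK2830371 group and −1.50 (SE 0.25, adjusted p 0.000173) in the DMSO group, and GC-corrected by −1.20 (adjusted p 0.000877) in the GSK2830371 group and −0.85 (adjusted p 0.00793) in the DMSO group. Topbp1, an activator of the kinase ATR, rose by 0.87 in the GSK2830371 group and 0.70 in the DMSO group. Uimc1, which binds ubiquitin at breaks, rose by 0.48 in the GSK2830371 group, a call that GC correction ended (0.32 (adjusted p 0.0704)), and by 0.62 in the DMSO group. In homologous recombination Rpa2, which coats single-stranded DNA, rose by 1.27 in the GSK2830371 group and 1.25 in the DMSO group, and Swi5, a recombination cofactor, by 0.97 in the GSK2830371 group and 1.16 in the DMSO group. The nuclease gene Mus81 changed by −1.35 (SE 0.30, adjusted p 0.00185) in the GSK2830371 group and −0.85 (SE 0.30, adjusted p 0.0273) in the DMSO group, and Xrcc3, which acts in strand exchange, by −1.13 (SE 0.33, adjusted p 0.01) in the GSK2830371 group and −1.50 (SE 0.33, adjusted p 0.00147) in the DMSO group. GC correction ended the DMSO call of Mus81 (−0.55 (adjusted p 0.143)) and the GSK2830371 call of Xrcc3 (−0.75 (adjusted p 0.06)). Omission of control 1 or 2 or DMSO replicate 3 also ended the DMSO call of Mus81 (adjusted p 0.0628 to 0.0861). The end-joining polymerase gene Poll fell in both, by 1.11 in the GSK2830371 group and 1.20 in the DMSO group, with GC-corrected changes of −0.65 in the GSK2830371 group and −0.73 in the DMSO group. Dclre1c, the Artemis nuclease, changed by 0.34 (adjusted p 0.198) in the GSK2830371 group and 0.54 (adjusted p 0.0419) in the DMSO group, where GC correction ended the call (0.16 (adjusted p 0.558)).

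In base excision repair Tdg, the thymine glycosylase, rose by 1.20 (SE 0.19, adjusted p 0.000158) in the GSK2830371 group and 1.32 (SE 0.19, adjusted p 6.74e-05) in the DMSO group, while Apex2, the second AP endonuclease, changed by −0.80 (adjusted p 0.0115) in the GSK2830371 group and −0.41 (adjusted p 0.165) in the DMSO group. Mbd4, a glycosylase at methylated sites, changed by −0.51 (adjusted p 0.168) in the GSK2830371 group, where it passed with GC correction (−0.76 (adjusted p 0.0497)), and by −0.78 (adjusted p 0.0393) in the DMSO group. In nucleotide excision repair Ercc5, the nuclease XPG, rose by 0.92 in the GSK2830371 group and 0.69 in the DMSO group. Gtf2h5, the smallest TFIIH subunit, rose by 0.64 in the GSK2830371 group, a call that GC correction ended (0.35 (adjusted p 0.17)), and by 0.86 in the DMSO group. Without control 4 the DMSO change of Ercc5 had an adjusted p of 0.0614 and the GSK2830371 change of Gtf2h5 one of 0.0546. Fan1, a crosslink nuclease, rose by 1.26 in the GSK2830371 group and 1.10 in the DMSO group, and Fancc, of the Fanconi core complex, fell by 1.001 in the GSK2830371 group and by 0.79 in the DMSO group, where GC correction ended the call (−0.64 (adjusted p 0.0898)). The alkyl-lesion dioxygenase gene Alkbh2 changed by −0.69 (adjusted p 0.0259; GC-corrected −0.17 (adjusted p 0.578)) in the GSK2830371 group and −0.30 (adjusted p 0.309) in the DMSO group. Leaving out single libraries ended the DMSO calls of Mbd4 (any control, or DMSO replicate 1, 2 or 4), of Fancc (control 1, 3 or 4, or any DMSO library but replicate 2) and of Dclre1c (any control, DMSO replicate 3 or 5, or GSK2830371 replicate 3 or 5), with adjusted p up to 0.107. It ended the GSK2830371 call of Alkbh2 (control 1, 2 or 3, or GSK2830371 replicate 2), with adjusted p up to 0.0933.

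RefSeq promoter windows were matched for 30 of the 35 genes, all but Rad50, Nbn, Prkdc, Ercc3 and Fancd2. They had a median GC content of 59.7% and a median of 21 CpG sites, beside 52.7% and 7 over the 27025 windows of the table. GGGCGG, the Sp1 box, was in 22 of 30 (73.3%, against 35.9% of all windows), CCAAT in 17 (56.7% against 38.0%), the ETS letters CCGGAAG in 7 (23.3% against 9.14%), the E-box CACGTG in 6 (20% against 7.24%), the E2F letters TTTNNCGC in 4 (13.3% against 5.29%) and the cyclic AMP element TGACGTCA in 1 (3.33% against 1.85%). Both strands were searched, and overlapping matches were each counted. The windows of the table, 1 per gene, were not limited to genes that passed the filter on low reads. The contrasts are thus not read as particular to repair genes. The windows of the genes that changed, of which some are listed here, were not alike in base composition. Xrcc1, whose window lies within its gene span, had 49.3% GC and 7 CpG sites. Lig3 had 54.0% and 19, Rnf8 58.7% and 21, and Ercc2 58.7% and 27. Mre11a had 60.0% and 26, Parp2 60.0% and 25, Mutyh 65.0% and 31, and Msh6 71.7% and 37.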

How the data were processed

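The 35 genes and the longer list of 110 were chosen with earlier results of these data known. Per the submitters' processing notes, reads were handled with FastQC, Trimmomatic, STAR and DESeq2 on mm10. No label states the counter, the strand setting or tool versions, so reads of overlapping genes could not be assigned by strand. The deposited signal is, judged from its values, the authors' whole reads over a size factor for each library: 100% of entries in all 18 columns were whole multiples of a step within 0.001. The 4 controls recur unchanged in both tables. The tables hold normalised values where raw counts had been assumed.

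Recovered reads of 14 libraries were put on 1 scale by median-of-ratios size factors. The log2 values after adding 1 entered 1 limma 3.58.1 fit (trend, robust) over 18810 genes kept by filterByExpr, two-sided, with Benjamini-Hochberg adjustment over all of them at 0.05. Printed fold changes are on this log2(value + 1) scale. edgeR 4.0.16 and DESeq2 1.42.0 on the recovered reads, other scalings, covariates, subsets and omission of each library were alternatives. GC correction subtracted a lowess curve (span 0.3) per library against transcript GC. The scripts were tested on simulated data. Gene annotation was GENCODE M21 (GRCm38), which matched 96.2% of genes. TPM used the union of exons. The labels name the mice as replicates but not their litters. Differences between libraries of a group were far above counting noise (chi-square per degree of freedom at least 37.2 over 26 pairs). R 4.3.3, Python 3.11.15 and matplotlib 3.10.9 were used. RNA integrity numbers were above 7 per the labels' protocols.

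Named genes were chosen by rule. Values by library are given for changed genes, up to the 3 largest changes per pathway and comparison, and for Brca1, Trp53bp1, Prkdc, Parp1, Ogg1, Xpa, Msh6, Fancd2, Mgmt and Polh. Apex1 and Parp2 were added after their values were seen. From the longer list, the gene with the smallest p in each direction is named for each pathway, except for some genes that are not reported here.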

Additional observations from a re-analysis of the deposited data

Results flagged for a closer look

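Among 105 sets of values (35 genes in 3 groups), 7 had a library standing apart from the rest of its group by Dixon's test, where chance gives about 5.25. Ercc1 stood at 1575 normalised reads in DMSO replicate 4, against 436.0 to 533.6 in the other DMSO libraries. Trp53bp1 stood at 1186 in DMSO replicate 5, against 743.7 to 811.7. Ung stood at 269.3 in GSK2830371 replicate 1, against 108.8 to 122.5, and Msh6 at 1056 in GSK2830371 replicate 4, against 781.5 to 834.4. Among controls, Lig3 was high at 2432 in replicate 4, against 1961 to 2035. Prkdc was low at 624.6 in control replicate 1, against 672.5 to 676.9, and Ercc3 was low there at 1043, against 1341 to 1399.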

How the results depend on the processing

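Counts below are genes of the 35 unless the longer list is named, and counts not given moved by less than 1.5 times. With 5 rises and 7 falls in the GSK2830371 group, total-read scaling gave 8 and 0, the Xist covariate 3 rises, Xist-positive libraries alone 2 rises, GC correction 2 and 3, GC and length correction 3 and 4, non-mitochondrial scaling 4 falls, mice of 31 days or fewer 3 falls, and omission of both i-TERTci replicates 1 (chosen after seeing the data, as were the GC corrections) 4 falls. With 4 rises and 5 falls in the DMSO group, DESeq2 gave 6 rises (Xpa and Pms2 added), total-read scaling gave 9 and 1, the Xist covariate 1 and 3, Xist-positive libraries alone 2 rises, mice of 31 days or fewer 2 rises, GC correction 1 rise, GC and length correction 2 rises, and non-mitochondrial scaling 2 falls. For the longer list, the 30 rises in the GSK2830371 group became 19 with either GC correction, and the 20 falls became 6 with total-read and 11 with non-mitochondrial scaling. In the DMSO group its 31 rises became 17 with the Xist covariate, 15 in Xist-positive libraries, 20 with GC and length and 19 with GC correction, and its 16 falls became 6 with total-read scaling, 8 with non-mitochondrial scaling, 9 with the covariate and 8 in Xist-positive libraries. Ercc2 in the DMSO group turned to 0.00 with GC correction (0.003) and 0.02 with GC and length correction (0.019). Leaving out 1 library gave 1 to 5 rises and 4 to 7 falls in the GSK2830371 group and 1 to 5 rises and 3 to 8 falls in the DMSO group, and for the longer list 22 to 31 rises and 13 to 20 falls in the GSK2830371 group and 23 to 32 rises and 10 to 16 falls in the DMSO group. GSK2830371 against DMSO stayed at 0 calls in all of these. The labels tie the replicate numbers to no shared litter or day, and not every pair of a comparison had a correlation above 0.1, so the numbers were not taken to pair the mice (correlations of deviations −0.03 to 0.33 between the i-TERTci groups, 0.05 to 0.10 between GSK2830371 and control, −0.06 to 0.09 between DMSO and control; best with its own number in 2 of 5, 4 of 4 and 2 of 4 pairs of these comparisons). With the replicate block the DMSO falls became 8, and other counts moved by less than 1.5 times. The causes of these shifts were not tested.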

Other observations

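Replicate 1 of both i-TERTci groups shared extremes among the repair genes, at 31 days on doxycycline in the GSK2830371 group and 29 days in the DMSO group. Apex1 and Ung were at their highest there in each group, at 2012 and 269 normalised reads in the GSK2830371 library and 1983 and 285 in the DMSO library. Lig4 and Palb2 were at their lowest, at 139 and 31.9 in the GSK2830371 library and 204 and 19.6 in the DMSO library, and Polh at 61.6 and 124.9. Both libraries were Xist-negative, as were 1 other GSK2830371 library and 2 other DMSO libraries.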
